A study of Mus musculus with 137 samples.

Results

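The genes described here encode core proteins of the spliceosome and the SR splicing factors, measured in the polyadenylated RNA of individual 2-cell mouse embryos. They were chosen by a rule on names that uses no measured value, though earlier results of these data were known. The rule took every symbol that starts with Snrp, Sf3a, Sf3b, Prpf or Srsf, or with Lsm and a digit, apart from 3 pseudogene symbols. This gave 59 of the 36043 symbols in the count table, with 344 transcripts. The embryos came from the B6129F1 cross and were cultured from 6 hours after fertilization. The medium held 0.1% DMSO (group DMSO) or SR1848 at 10 µM (group SR1848), a compound used to inhibit the nuclear receptor NR5A2. Embryos of group SR1848_NR5A2OE had the same SR1848 and were injected with NR5A2 mRNA at 500 ng/µl. All groups grew in wet chambers without oil, and each library is 1 embryo of 1 of 2 experiments. The series title gives activation of the embryo's genome by NR5A2 as the subject.

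The spliceosome removes introns with small nuclear RNAs that are wrapped by rings of Sm or LSm proteins and carry further proteins of their own. The U1 particle marks the start of an intron. The U2 particle, with the SF3a and SF3b complexes, marks the branch point, and the joined U4, U6 and U5 particles with the PRP proteins then form the catalytic centre. SR proteins bind exons, help these particles to find their sites, and control their own mRNAs through exons that carry a stop codon. The oocyte hands the embryo a store of mRNA, and the mouse embryo makes its main burst of new transcripts at the 2-cell stage.

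Of 137 libraries, 114 entered the comparisons: 18 DMSO, 40 SR1848 and 56 SR1848_NR5A2OE. Another 7 had few counts or few detected genes. The remaining 16, numbers 1 to 8 of DMSO and of SR1848_NR5A2OE in experiment 2, were left out as sets that went against their labels. The 8 labelled DMSO held 47.7 to 7179 CPM of GFP (CPM, counts scaled to a common library size), where the kept DMSO libraries held at most 0.771, and a median of 2281 CPM of Nr5a2. Number 4 of these had 88.9 CPM of Nr5a2, within the 84.4 to 191 CPM of the kept DMSO libraries, so its Nr5a2 did not go against its label. The 8 labelled SR1848_NR5A2OE had a median of 109 CPM of Nr5a2 and at most 0.456 CPM of GFP. The 114 libraries held 3383462 to 9317721 counts, and Nr5a2 had medians of 111 CPM in DMSO, 13.3 in SR1848 and 3126 in SR1848_NR5A2OE. Experiment 2 kept 2 DMSO libraries, so the comparisons with DMSO rest mainly on experiment 1. Among the 56 SR1848_NR5A2OE libraries, 42 had at least 1439 CPM of GFP, with a median of 3564 CPM of Nr5a2. The other 14 had at most 71.2 CPM of GFP, with a median of 17.5 CPM of Nr5a2, and are set apart below at 100 CPM of GFP, which the labels do not mention. Oocyte transcripts (19 genes) summed to medians of 5951, 16370 and 11710 CPM in DMSO, SR1848 and SR1848_NR5A2OE, and 2-cell transcripts (18 genes) to 1985, 326 and 1019 CPM. With SR1848 against DMSO, 8 of these 18 were called higher and 6 lower, where 37.7% and 39.0% of all genes were. Their log2 fold changes ran from -6.84 to 4.74, with a median of 0.41, so the sum does not stand for each gene. As a share of counts the 2-cell transcripts had medians of 0.210% in DMSO, 0.0319% in SR1848, 0.0154% in the 42 SR1848_NR5A2OE embryos with GFP and 0.272% in the 14 with little. Of 12 genes of cumulus and granulosa cells 5 or 6 had a median of 0 in each group, and their sums had medians of 86.5 CPM (37.2 to 130) in DMSO, 17.6 (1.41 to 209) in SR1848 and 28.2 (6.26 to 61.2) in SR1848_NR5A2OE. Most of the DMSO sum was Amhr2, with medians of 78.6, 0.100 and 6.41 CPM, while Col4a2 had 0.422, 7.13 and 5.31 CPM and the defining Foxl2 and Fshr a median of 0. Blood genes summed to medians of 14.4, 27.4 and 192 CPM, with medians above 0 for the 2 alpha globin genes and of 0 for beta globin, Alas2 and Ptprc. The epithelial gene Epcam had medians of 159, 25.9 and 30.8 CPM and Krt5 of 0; Krt14 had 0, 0 and 0.216 CPM and was called higher in SR1848_NR5A2OE than in SR1848, and 7 sperm genes summed to at most 26.0 CPM. The part of these lists in the results was not tested.

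Transcripts of the spliceosome and SR proteins were scarcer in embryos grown with SR1848. Together the 59 genes gave 0.651% ± 0.060 (SD, n = 18) of an embryo's counts in DMSO and 0.245% ± 0.039 (SD, n = 40) in SR1848. Single embryos ranged from 0.565% to 0.779% in DMSO and from 0.182% to 0.347% in SR1848, so all 40 SR1848 embryos lay below the lowest DMSO embryo. The medians were 0.644% and 0.235% in experiment 1 and 0.664% and 0.249% in experiment 2. With NR5A2 mRNA the share was 0.234% ± 0.069 (SD, n = 56), and all 56 embryos stayed below the lowest DMSO embryo. Fewer mRNA copies per embryo and a larger amount of other mRNA cannot be told apart in such shares.

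**Figure D1:**
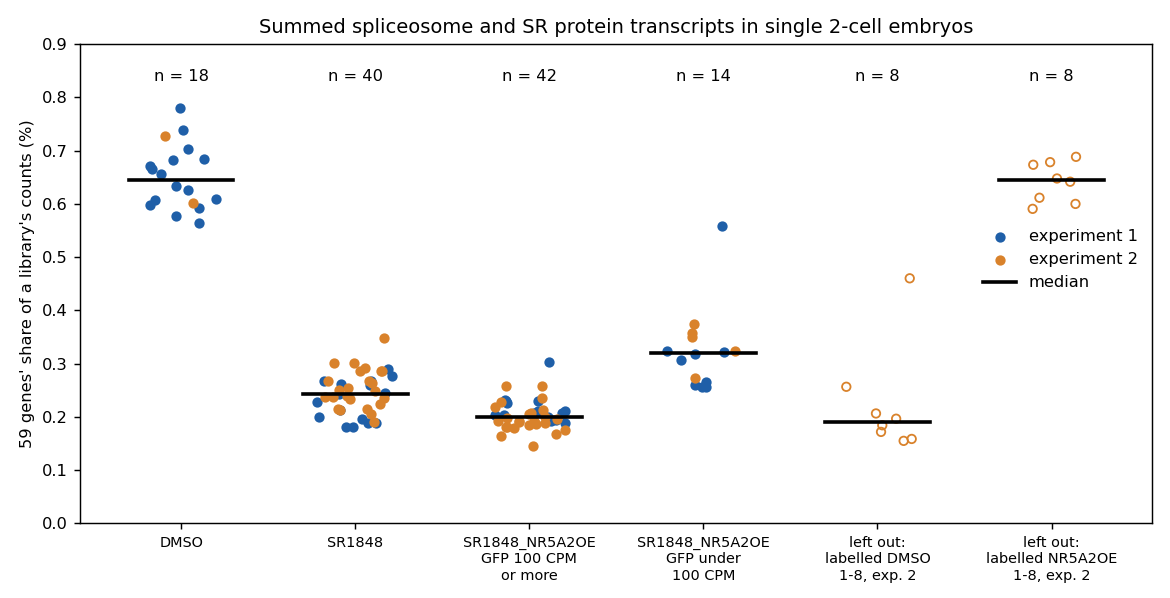
Summed share of a library's counts (vertical axis, %) from the 59 genes; each point is 1 embryo, coloured by experiment, bars are medians, and open points are libraries left out because they went against their labels. All 40 SR1848 embryos lie below the 18 DMSO embryos, and SR1848_NR5A2OE embryos with GFP under 100 CPM have a higher median (0.320%) than those with more (0.200%).

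In edgeR's quasi-likelihood fit, with p-values adjusted over 15099 genes (Benjamini-Hochberg), 42 of the 55 members that could be tested fell with SR1848 and 7 rose. Over all genes 39.0% were lower and 37.7% higher, so lower calls were 76.4% of the tested members against 39.0% in the background. The median log2 fold change was -1.63 over the members and -0.02 over all genes. In experiment 1 alone 40 fell and 7 rose, and in experiment 2 alone 33 of 57 fell and 3 rose. With all 137 libraries as labelled 36 fell and 8 rose. For 20 members every SR1848 embryo was below every DMSO embryo (36.4%, against 12.1% of all genes), and for no member was every one above (5.90% of all genes). The members that could not be tested were Prpf40b, Srsf12, Sf3a2 and the processed pseudogene Snrpert. Sf3a2, a subunit of SF3a, had a median of 1.34 CPM in DMSO and 0.205 in SR1848, and the other 3 had a median of 0 in every group. These fold changes use edgeR's TMM scaling. Scaled to oocyte transcripts instead, the median of all genes was -1.37, 53 members fell and none rose. On the TMM scale 17 of the 19 oocyte genes were called higher with SR1848 (median 1.66 log2), so scaling to them shifts all genes downward. Shares of all genes called were given for the first of these fits only, so the counts under other settings have no background beside them.

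**Figure D2:**
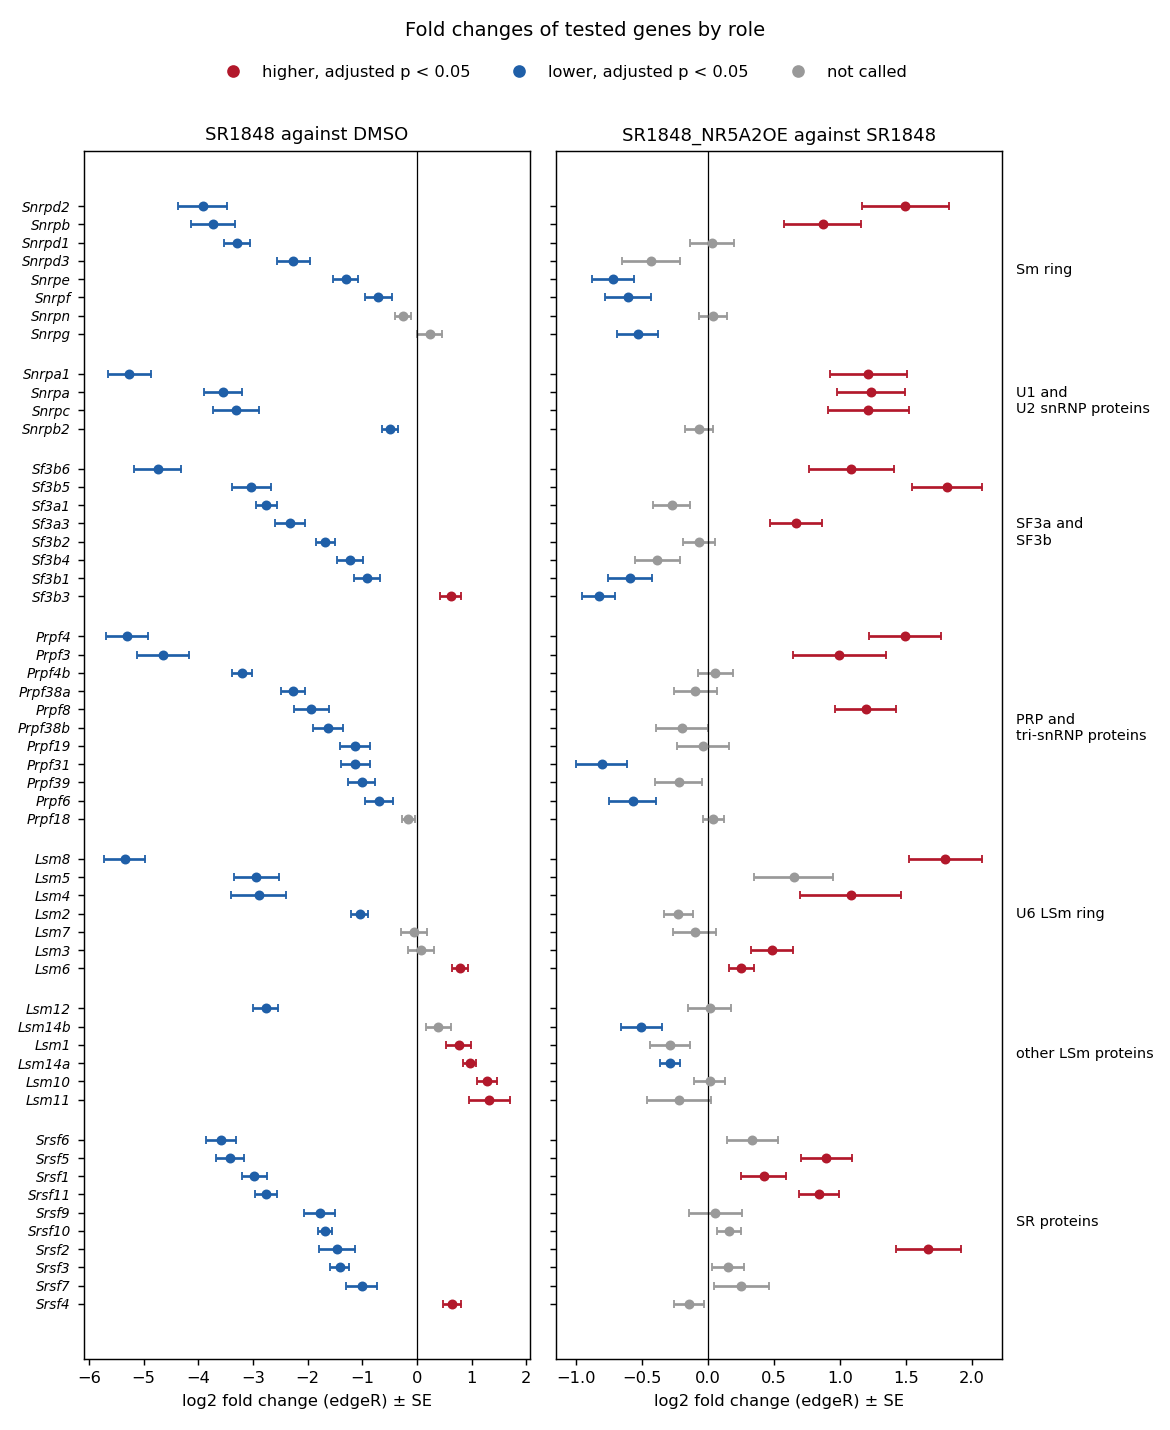
Log2 fold change with its standard error (edgeR, horizontal axis; the 2 panels have different scales) of the tested genes, 1 of the 55 not shown, grouped by role and coloured by its call at an adjusted p of 0.05. With SR1848 most roles lie left of 0 and the other LSm proteins lie mostly right of it. Scaled to oocyte transcripts, which lowers the median of all genes as well, 6 of the 7 genes that rose (all but Lsm11) turn negative.

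The Sm proteins, which form the ring on the U1, U2, U4 and U5 RNAs, did not move as a unit. Of 8 genes 6 fell (75%, against 39.0% of all genes), with a median log2 fold change of -1.78. Snrpd1 lay between 73.4 and 183 CPM in DMSO (median 115) and between 1.75 and 29.3 CPM in SR1848 (median 12.1). The ranges did not touch, and the fold change was -3.30 log2 (SE 0.24, adjusted p = 4.2e-25). Snrpd2 (-3.92 log2) and Snrpb (-3.73 log2) fell further, while Snrpe fell by 1.30 and Snrpf by 0.71 on the log2 scale. Both lost their call in experiment 2 alone (adjusted p = 0.0974 and 0.214), and Snrpf also with all libraries as labelled (-0.28 log2, adjusted p = 0.390). Snrpg ranged from 143 to 349 CPM in DMSO (median 236) and from 108 to 450 CPM in SR1848 (median 247), and was not called (0.24 log2, SE 0.23, adjusted p = 0.348). Snrpe and Snrpg were the most abundant members per length in DMSO, at medians of 787 and 660 TPM (counts scaled to transcript length and library). In SR1848 they stood at 307 and 708 TPM, so Snrpg was then the most abundant. Snrpn, the imprinted relative of Snrpb, was not called either (-0.26 log2, SE 0.15, adjusted p = 0.115). Transcripts for proteins of the same ring thus had fold changes from -3.92 to 0.24 log2. Reads of small genes such as these are divided between near-identical copies by the counting, so their levels are estimates.

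Transcripts of the 4 members placed with the U1 and U2 particles, apart from SF3a and SF3b, all fell, where 39.0% of all genes did. The rule on names does not take every protein of these particles. Snrpa1, the U2 protein that pairs with Snrpb2, lay between 104 and 298 CPM in DMSO (median 206) and between 0.856 and 14.3 CPM in SR1848 (median 4.77). Each SR1848 embryo was thus below every DMSO embryo, and the fold change was -5.26 log2 (SE 0.40, adjusted p = 1.39e-23). Snrpa of U1 had medians of 150 CPM in DMSO and 11.5 CPM in SR1848 (-3.55 log2, SE 0.35), and Snrpc, the U1 protein at the 5′ splice site, fell by 3.31 on the log2 scale. Snrpb2, the partner of Snrpa1, fell by only 0.49 (SE 0.15, adjusted p = 0.0023), from a median of 45.5 to 35.8 CPM. It was not called in experiment 1 alone (-0.38 log2), in experiment 2 alone (-0.26 log2) or with all libraries as labelled (-0.16 log2), which left 3 of the 4.

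In SF3a and SF3b, the complexes that hold the branch point, 7 of 8 tested genes fell (87.5%, against 39.0% of all genes). Sf3b6, the subunit next to the branch point adenosine, went from 105 to 207 CPM in DMSO (median 158) to 0 to 31.9 CPM in SR1848 (median 3.21). Its fold change was -4.74 log2 (SE 0.44, adjusted p = 2.07e-18). Sf3a1 had medians of 118 CPM in DMSO and 16.1 CPM in SR1848 (-2.75 log2, SE 0.19), again with no overlap. The other falls were Sf3b5 (-3.03), Sf3a3 (-2.32), Sf3b2 (-1.68), Sf3b4 (-1.23) and Sf3b1 (-0.92 log2). Sf3b1, the large scaffold around the branch helix, lay between 263 and 670 CPM in DMSO and between 69.6 and 435 CPM in SR1848. Its call was lost with all libraries as labelled (-0.52 log2, adjusted p = 0.114). Sf3b3, another large scaffold subunit, went the other way, from a median of 68.8 to 92.9 CPM (0.61 log2, SE 0.18, adjusted p = 0.00179), but was -0.83 log2 when scaled to oocyte transcripts. It was not called in experiment 2 alone (0.27 log2, adjusted p = 0.701) or with relative log expression (0.05 log2, adjusted p = 0.786).

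Among the PRP proteins 11 of 12 tested genes fell (91.7%, against 39.0% of all genes). Prpf4, which binds the U4 and U6 particle together with Prpf3, lay between 84.4 and 216 CPM in DMSO (median 153) and between 0 and 30.3 CPM in SR1848 (median 4.08). It fell by 5.30 on the log2 scale (SE 0.38, adjusted p = 6.49e-25) and its partner Prpf3 by 4.65 (SE 0.48). Prpf4b, a kinase of the tri-snRNP, had medians of 131 and 14.6 CPM and the smallest p of its role (-3.19 log2, SE 0.19, adjusted p = 1.47e-31). Prpf38a, needed for activation, went from a median of 202 to 38.5 CPM (-2.27 log2, SE 0.23). Prpf8, the core protein of the catalytic centre, had medians of 94.7 and 22.0 CPM (-1.93 log2, SE 0.32), and its call was lost in experiment 2 alone (-1.42 log2, adjusted p = 0.095). Smaller falls were those of Prpf38b (-1.63), the ubiquitin ligase Prpf19 (-1.13), Prpf31 of the U4 and U6 particle (-1.13), Prpf39 (-1.01) and Prpf6, which bridges U5 to it (-0.70 log2). Prpf6 was not called in experiment 1 alone (-0.47 log2, adjusted p = 0.170) or in experiment 2 alone (-0.85 log2, adjusted p = 0.232), and Prpf31 was not with all libraries as labelled (-0.63 log2, adjusted p = 0.0833). Prpf18, which acts in the last catalytic step, had medians of 152 and 141 CPM and was not called (-0.16 log2, SE 0.12, adjusted p = 0.211).

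The ring on the U6 RNA, Lsm2 to Lsm8, was split. Lsm8, the subunit that sets this nuclear ring apart from the cytoplasmic one, lay between 54.9 and 146 CPM in DMSO (median 80.3) and between 0 and 12.1 CPM in SR1848 (median 2.01). This was the largest fall among the members, -5.35 log2 (SE 0.38, adjusted p = 1.36e-25), with no overlap. Lsm5 (-2.94), Lsm4 (-2.90) and Lsm2 (-1.04 log2) also fell, whereas Lsm3 (0.07) and Lsm7 (-0.06 log2) were not called. Lsm6 had medians of 40.1 CPM in DMSO and 69.3 CPM in SR1848, above the DMSO median in 39 of 40 embryos (0.79 log2, SE 0.14, adjusted p = 4.0e-07). Scaled to oocyte transcripts, Lsm6 stood at -0.62 log2, and with relative log expression it was not called (0.24 log2, adjusted p = 0.0795).

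The other LSm proteins, which work outside the spliceosome, were the one role in which more genes rose (4) than fell (1). Over all genes 37.7% were higher and 39.0% lower. Lsm1 takes the place of Lsm8 in the cytoplasmic ring that promotes mRNA decay, Lsm14a and Lsm14b repress translation of stored mRNA, and Lsm10 and Lsm11 belong to the U7 particle that trims histone mRNA. Lsm14a lay between 94.2 and 200 CPM in DMSO (median 141) and between 182 and 490 CPM in SR1848 (median 297), and all 40 embryos were above the DMSO median (0.96 log2, SE 0.11, adjusted p = 5.6e-13). Lsm10 had medians of 35.2 and 82.2 CPM (1.28 log2, SE 0.18), Lsm1 of 40.5 and 66.6 CPM (0.76 log2, SE 0.23), and Lsm11 of 3.29 and 10.2 CPM (1.33 log2, SE 0.37). All 40 embryos were above the DMSO median for Lsm10 and Lsm1, and 39 for Lsm11. These directions hold on the TMM scale: scaled to oocyte transcripts, the fold changes were -0.41 for Lsm14a, -0.19 for Lsm10, -0.69 for Lsm1 and 0.09 log2 for Lsm11. Lsm1 also lost its call with relative log expression (0.20 log2, adjusted p = 0.393), and Lsm11 in experiment 2 alone (1.42 log2, adjusted p = 0.121). Lsm14b was not called (0.39 log2, SE 0.23, adjusted p = 0.115). Lsm12 fell from a median of 97.7 to 16.1 CPM (-2.76 log2, SE 0.23, adjusted p = 4.44e-21).

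Of the SR proteins, 9 of 10 tested genes fell (90%, against 39.0% of all genes). Several of these genes carry an exon with an early stop codon, and its inclusion sends the mRNA to nonsense-mediated decay. The sequences below are the reading frame of that exon in the decay transcripts of Srsf6, Srsf7 and Srsf3, from the first base of the exon to its stop codon in capitals, from GENCODE M21. They are shown because the counts of these transcripts moved in different ways. The exon of Srsf6-201 spans chr2:162932815-162933082 (GRCm38, plus strand, 268 bases), that of Srsf7-203 chr17:80204622-80205081 (minus strand, 460 bases) and that of Srsf3-201 chr17:29039454-29039909 (plus strand, 456 bases).
Srsf6-201: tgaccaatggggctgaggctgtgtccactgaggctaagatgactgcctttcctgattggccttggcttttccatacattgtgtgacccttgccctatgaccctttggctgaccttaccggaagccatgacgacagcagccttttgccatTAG
Srsf7-203: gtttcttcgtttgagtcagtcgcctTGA
Srsf3-201: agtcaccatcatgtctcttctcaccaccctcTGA

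Srsf6 had the largest fall of the role, from 95.2 to 280 CPM in DMSO (median 165) to 1.73 to 51.3 CPM in SR1848 (median 11.7). Its fold change was -3.58 log2 (SE 0.27, adjusted p = 2.03e-23), with no overlap. Srsf5, the most abundant SR gene per length in DMSO (433 TPM), fell from a median of 339 to 30.3 CPM (-3.42 log2, SE 0.26). Srsf11 had medians of 156 and 26.0 CPM (-2.75 log2, SE 0.20) and Srsf10 of 293 and 96.1 CPM (-1.68 log2, SE 0.13). Srsf1, the founding member of the family, fell by 2.98, Srsf9 by 1.78, Srsf2 by 1.46, Srsf3 by 1.41 and Srsf7 by 1.01 on the log2 scale. The calls of Srsf2 (-1.17 log2, adjusted p = 0.223) and Srsf7 (-1.30 log2, adjusted p = 0.148) were lost in experiment 2 alone. Srsf4 was the exception, with medians of 29.9 CPM in DMSO and 46.5 CPM in SR1848 (0.64 log2, SE 0.16, adjusted p = 0.000306), and -0.78 log2 when scaled to oocyte transcripts. It was not called with relative log expression (0.08 log2, adjusted p = 0.664).

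Transcript usage asks whether the transcripts of a gene changed in different proportion. It was tested with edgeR's diffSpliceDGE, with Simes p per gene adjusted over 7858 genes. With SR1848 against DMSO it changed in 21 of 44 testable members (28.3% of all genes were called). The 6 members with the smallest p were Srsf10, Prpf18, Lsm6, Sf3b3, Lsm8 and Snrpn, of which Prpf18 and Snrpn were not called for their level. kallisto assigns reads among transcripts that share most of their sequence, so shares are estimates that lean on the parts in which they differ.

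The decay transcripts of Srsf6 and Srsf7, which carry the stop codon exons, moved in opposite directions as shares of their gene's counts. The exons themselves were not counted. Srsf6-201, the decay transcript shown above, ran from 40.2 to 158 CPM in DMSO (median 100.96) and from 0 to 11.4 CPM in SR1848 (median 1.15). It made up 58.2% ± 7.76 (SD, n = 18) of the gene's counts in DMSO and 14.2% ± 16.3 (SD, n = 40) in SR1848 (relative log2 change -1.31, adjusted p = 0.00104 by edgeR over all transcripts). The coding Srsf6-203 held most of the rest and fell from a median of 60.3 to 10.6 CPM. It ends 2095 bases farther downstream, so the pair differs in the 3′ end as well as in the exon. Srsf7-203 had medians of 30.8 and 40.5 CPM, while the coding Srsf7-208 went from 91.0 to 8.31 CPM. The decay form was therefore 20.1% ± 14.6 (SD, n = 18) of Srsf7 counts in DMSO and 53.7% ± 22.8 (SD, n = 40) in SR1848 (1.11 log2, adjusted p = 0.00327). The decay transcript of Srsf3 held 53.6% ± 26.2 (SD, n = 18) and 45.4% ± 23.0 (SD, n = 40), which was not called (0.07 log2, adjusted p = 0.991).

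Other changes lay at the ends of transcripts. Srsf10-204 and Srsf10-202, coding transcripts that end at chr4:135865815 (GRCm38), held 41.2% ± 7.86 and 12.2% ± 3.77 of Srsf10 counts in DMSO (SD, n = 18). In SR1848 they held 14.6% ± 5.65 and 2.00% ± 3.36 (SD, n = 40). Srsf10-205, which ends farther downstream at 135869908, went from 6.58% ± 2.22 to 41.9% ± 10.9 (1.88 log2, adjusted p = 1.79e-10), and from a median of 20.8 to 38.4 CPM. Prpf18-204 and Prpf18-201 have 3′ ends 1970 bases apart: the shorter fell from 64.2% ± 9.53 to 14.8% ± 9.09 of counts and the longer rose from 35.4% ± 9.74 to 84.9% ± 9.04 (adjusted p = 1.80e-08 and 0.000466). Prpf18 as a gene was not called, while these 2 transcripts went from medians of 93.1 to 20.3 CPM and from 48.9 to 121 CPM. In Lsm6 the share of Lsm6-201 was 10.1% ± 7.62 in DMSO and 57.2% ± 9.35 in SR1848 (adjusted p = 1.43e-08), with 3.44 and 37.7 CPM. A later 3′ end was about as common as over all genes. In 11 of the 21 called members the transcript with the largest gain ended downstream of the one with the largest loss (52.4%, against 46.7% of 2216 called genes). Snrpn-202, whose first exon lies upstream of that of Snrpn-201, went from 3.72% ± 6.5 to 17.6% ± 15.5 (1.99 log2, adjusted p = 0.000141). Sf3b3-205, a retained intron entry, went from 8.29% ± 4.12 to 0.529% ± 0.760 (-2.92 log2, adjusted p = 1.58e-07).

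**Figure D3:**
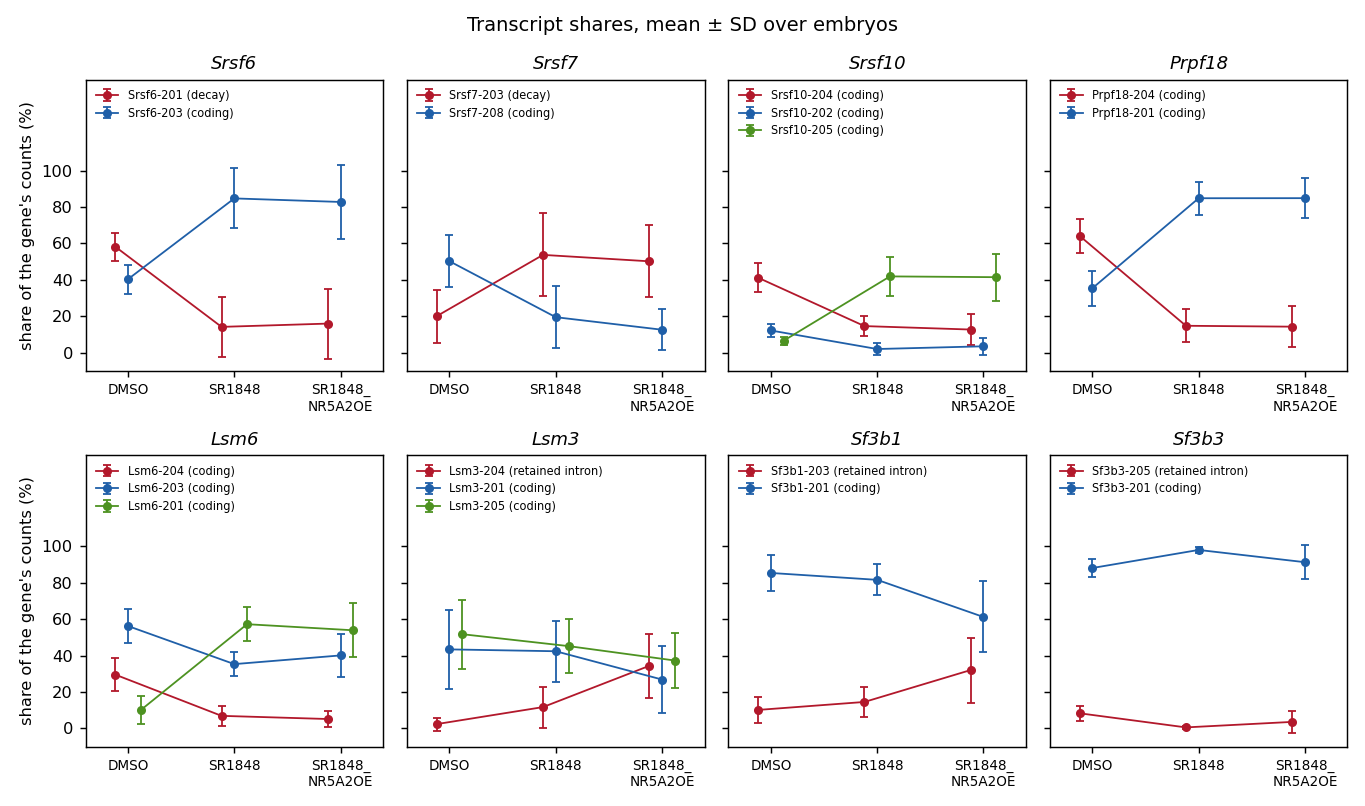
Share of a gene's counts (%) held by named transcripts in each group, as mean ± SD over embryos (18 DMSO, 40 SR1848 and 56 SR1848_NR5A2OE; 55 for Lsm3); decay marks transcripts annotated for nonsense-mediated decay. The Srsf6 decay transcript goes from 58.2% to 14.2% with SR1848 and that of Srsf7 from 20.1% to 53.7%, and the retained intron entries of Lsm3 and Sf3b1 are highest with NR5A2 mRNA.

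SR1848_NR5A2OE against SR1848 asks what differed in embryos supplied with NR5A2 mRNA. The kept SR1848 embryos held at most 3.25 CPM of GFP, so the groups also differ in GFP. The labels name no group with GFP or an injection but without NR5A2 mRNA, so the parts of these cannot be told apart. The members moved both ways: 19 rose and 10 fell, where 29.8% of all genes were higher and 14.8% lower, and the median log2 fold change was 0.04 against 0.12 over all genes. Against DMSO 41 were lower and 7 higher (34.6% and 42.5% of all genes), with a median of -1.66. These 2 comparisons share the SR1848_NR5A2OE embryos. In experiment 1 alone 17 rose and 3 fell, and in experiment 2 alone 10 rose and 12 fell. With the 14 embryos of little GFP left out, 10 rose and 18 fell (24.4% and 18.1% of all genes), so the balance of directions turned. Scaled to oocyte transcripts, which moved the median of all genes to 0.64, 37 rose and 1 fell. With the replicate number as a block 8 rose and 11 fell. Shares of all genes are not given for the single experiments, the oocyte scaling or the block, so those counts have no background beside them.

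The 14 embryos with little GFP had Nr5a2 at 5.40 to 97.6 CPM, against 3.92 to 29.7 CPM in SR1848. Their summed share had a median of 0.320% (0.256% to 0.558%), against 0.244% in SR1848 and 0.200% (0.146% to 0.304%) in the 42 embryos with more GFP. The 2-cell transcripts differed between these sets as given above, and the epithelial genes had median shares of 0.00750% in the 14 and 0.00255% in the 42; their part in the result was not tested. The 4 embryos above the highest SR1848 embryo were all among the 14. The highest, number 21 of experiment 1, had 0.558%, and without it 18 members rose and 14 fell. Number 2 of experiment 1 had 8346 detected genes, against 12816 to 18381 in the other 113 libraries, and no count for 28 of the 59 members; without it 19 rose and 12 fell. No label names this split, which rests on GFP counts, and the 2 sets were not tested against each other.

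Sf3b5, Lsm8, Srsf2, Prpf4 and Srsf11 rose with and without the 14 embryos of little GFP. Each had a higher median in these 14 than in the 42 embryos with more GFP, a difference that was not tested. For Sf3b5 the medians were 98.6 CPM in the 14 and 37.4 CPM in the 42, and for Lsm8 8.32 and 4.92 CPM. Srsf2 had 48.4 and 42.1 CPM, Prpf4 12.2 and 9.67 CPM and Srsf11 48.9 and 40.2 CPM. Sf3b5, a small SF3b subunit, lay between 1.93 and 112 CPM in SR1848 (median 8.97) and between 0 and 175 CPM in SR1848_NR5A2OE (median 47.9), above the SR1848 median in 54 of 56 embryos. It rose by 1.81 log2 (SE 0.27, adjusted p = 7.83e-09) and by 1.46 without the 14. Lsm8 had medians of 2.01 and 5.75 CPM (1.80 log2, SE 0.28, adjusted p = 3.11e-08; 1.42 without the 14), which is far below the 80.3 CPM of DMSO. Srsf2, the SR protein with the strongest change, went from a median of 16.6 to 44.9 CPM (1.67 log2, SE 0.25, adjusted p = 1.04e-08; 1.68 without the 14), and it did not differ from DMSO by the test (0.21 log2, adjusted p = 0.546). Prpf4 rose by 1.5 log2 (1.22 without the 14) and Srsf11 by 0.84 log2 (0.73 without the 14); Srsf11 was not called in experiment 2 alone (0.29 log2, adjusted p = 0.189).

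Snrpa1, Snrpa and Sf3b6 were no longer called once the embryos with little GFP were left out. Snrpa1 was called at 1.22 log2 (SE 0.29, adjusted p = 0.000277). Its median was 4.77 CPM in SR1848, 4.46 CPM in the 42 embryos and 23.2 CPM in the 14, and without the 14 the fold change was 0.21 log2 (adjusted p = 0.459). Snrpa showed medians of 11.5, 13.6 and 65.2 CPM in the same order (1.24 log2, and 0.47 log2 with adjusted p = 0.0707 without the 14). Sf3b6 showed 3.21, 5.12 and 27.9 CPM (1.09 log2, and 0.01 log2 with adjusted p = 0.983). For Prpf8 the medians were 22.0, 28.8 and 113 CPM, the last above the 94.7 CPM of DMSO, and it rose by 1.2 log2 (SE 0.23) with the 14 and by 0.49 without them.

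The 10 falls were led by Sf3b3, from a median of 92.9 CPM in SR1848 to 50.4 CPM (-0.83 log2, SE 0.12, adjusted p = 1.44e-08), below the 68.8 CPM of DMSO. Prpf31 went from 22.1 to 10.9 CPM (-0.81 log2, SE 0.19) and Prpf6 from 20.3 to 16.4 CPM (-0.57 log2, SE 0.18). In the Sm ring Snrpe went from 83.5 to 45.0 CPM (-0.72 log2, SE 0.16), Snrpf from 31.1 to 19.6 CPM (-0.61 log2, SE 0.18) and Snrpg from 247 to 169 CPM (-0.54 log2, SE 0.16). Sf3b1 had medians of 211 and 100.9 CPM (-0.59 log2, SE 0.17, adjusted p = 0.00239), with 84.0 CPM in the 42 embryos and 216 CPM in the 14. Lsm14b (-0.51 log2) and Lsm14a (-0.29 log2) fell as well. Of these, Snrpe, Snrpf, Sf3b1, Prpf31 and Prpf6 had already fallen with SR1848, and moved further from DMSO. Without the 14 embryos the fold changes were -1.21 for Sf3b1, -1 for Snrpe, -0.92 for Snrpf and -0.79 log2 for Prpf6. Several of these calls depended on the libraries: in experiment 1 alone Sf3b1 (-0.11), Snrpe (-0.32), Snrpf (-0.28), Snrpg (-0.27), Lsm14a (-0.12) and Lsm14b (-0.52 log2) were not called, and in experiment 2 alone Prpf31 (-0.58) and Prpf6 (-0.42 log2) were not. Scaled to oocyte transcripts, Sf3b1 (0.22), Lsm14a (0.24) and Lsm14b (0.01 log2) turned positive, and Sf3b3 was the 1 member still called lower.

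Transcript usage with NR5A2 mRNA changed in 9 of 44 testable members (15.3% of all genes), led by Srsf7, Sf3b3, Sf3b1, Lsm3, Srsf10 and Srsf3. Of 12 called gains of share among the members 7 (58.3%) were retained intron entries and none was protein coding. Over all genes 47.1% of 1257 gains were retained intron entries and 32.6% protein coding, and such entries were 23.1% of the member transcripts tested against 14.1% over all genes, so the members' share lay near the background. Lsm3-204, a retained intron entry, held 11.7% ± 11.2 of Lsm3 counts in SR1848 (SD, n = 40) and 34.4% ± 17.6 in SR1848_NR5A2OE (SD, n = 55), against 2.34% ± 3.62 in DMSO (SD, n = 18). Its median was 1.65 CPM in SR1848 and 9.04 CPM with the mRNA (1.26 log2, adjusted p = 0.000819). Sf3b1-203 went from 14.5% ± 8.03 (SD, n = 40) to 32.1% ± 17.8 (SD, n = 56; 0.86 log2, adjusted p = 8.81e-05), with 32.1% in the 42 embryos and 31.9% in the 14. Srsf3-204 went from 4.70% ± 4.47 to 14.3% ± 12.8 and Sf3b3-205 from 0.529% ± 0.760 to 3.55% ± 5.93. The Srsf6 and Srsf7 decay transcripts kept the shares of SR1848, 16.0% ± 19.3 and 50.2% ± 19.9 (SD, n = 56), and neither was called. Leaving out the 14 gave 11 called members of 42. In experiment 1 alone 2 of 38 were called. Shares of all genes are not given for these settings, so the counts have no background beside them.

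Other genes that act with the spliceosome were read from lists chosen by function. Among other spliceosome proteins 50 of 62 fell with SR1848 and 2 rose, with a median of -1.60. Over all genes 39.0% were lower and 37.7% higher in this comparison, the background for each list. Snrnp35, of the minor spliceosome, fell by 6.58 and the helicase Ddx39b by 4.01 on the log2 scale, while U2af1l4, a relative of the 3′ splice site factor, rose (1.95 log2). Of 15 other regulators with RS domains and exon junction proteins 12 fell and none rose; Casc3 of the exon junction complex fell by 4.32. Sm ring assembly, which needs the SMN complex and the methylosome, had the lowest median of the lists, -4.36 log2, with 14 of 16 genes lower and Gemin8 higher (1.45 log2). Gemin2, the SMN partner that holds the Sm ring open, fell by 5.75 and Wdr77 of the methylosome by 5.88. Summed, these 16 genes had a median of 2544 CPM in DMSO, 314 CPM in SR1848 and 409 CPM in SR1848_NR5A2OE. Of 8 tested genes for kinases and import of SR proteins 6 fell and 2 rose (median -1.12). The import receptor Tnpo3 fell by 6.03, and the 2 that rose were the cytoplasmic kinases Srpk1 (0.88 log2) and Srpk2 (1.40 log2). Of 27 hnRNP proteins 17 fell and 4 rose, the latter including Ptbp2 (2.19 log2) and Ptbp3 (2.02 log2), relatives of the splicing repressor Ptbp1. With NR5A2 mRNA against SR1848, 8 of the 16 assembly genes rose and 2 fell, with Gemin2 at 2.58 log2 and a list median of 0.70. Over all genes 29.8% were higher and 14.8% lower in this comparison, with a median of 0.12. As a share of counts the assembly genes had medians of 0.0316% in SR1848, 0.0384% in the 42 embryos with GFP and 0.0593% in the 14 with little. Other spliceosome proteins split into 16 higher (25.8%) and 15 lower (24.2%).

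Promoters were read from RefSeq windows of GRCm38.p6, 250 bases before to 50 bases after each start, found for 49 members (62 windows, 1.27 a gene; 1.26 over 11175 tested genes). Letters were searched on both strands. The NR5A2 letters CAAGGNCA were in a window of 2 members, Srsf11 and Lsm7 (4.08%, against 6.33% of tested genes). The ETS letters CCGGAAGT were in 10 members (20.4%, against 8.28%), 9 of which were among the 35 that fell and had a window. The NRF1 letters GCGCATGCG were in 3 members (6.12%, against 3.81%) and the YY1 letters AAGATGGCG in 3 (6.12%, against 3.17%). The 100 bases before the start are shown for 4 members that fell and hold the ETS letters there, with these letters in capitals on either strand. Srsf5 is at chr12:80945399-80945498 (plus strand), Prpf4b at chr13:34875429-34875528 (plus), Sf3a3 at chr4:124714761-124714860 (plus) and Srsf11 at chr3:158031749-158031848 (minus).
Srsf5: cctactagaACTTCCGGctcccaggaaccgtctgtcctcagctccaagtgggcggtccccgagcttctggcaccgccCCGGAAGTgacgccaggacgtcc
Prpf4b: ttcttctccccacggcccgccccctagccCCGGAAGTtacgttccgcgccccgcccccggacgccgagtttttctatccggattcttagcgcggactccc
Sf3a3: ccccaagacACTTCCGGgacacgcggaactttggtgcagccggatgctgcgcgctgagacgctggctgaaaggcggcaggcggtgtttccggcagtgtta
Srsf11: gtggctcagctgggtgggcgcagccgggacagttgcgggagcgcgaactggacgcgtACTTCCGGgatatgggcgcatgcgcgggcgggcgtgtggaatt
Srsf5 holds the letters on both strands, beginning 91 and 23 bases before its start, and Srsf11 holds the NRF1 letters a few bases after its ETS letters. The Srsf11 sequence shown lies before a start within the annotated gene (chr3:158010473-158036639). Its NR5A2 letters are in another window, chr3:158036557-158036856. A match of letters is a description and shows no binding.

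In the authors' deposited table of SR1848_NR5A2OE against SR1848, per transcript and from the authors' own fit, 266 of the 344 member transcripts have an adjusted p-value. Of these, 42 (15.8%) were higher and 31 (11.7%) lower at 0.05, against 13.8% and 10.1% of 61900 transcripts in all.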

How the data were processed

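RNA of 137 single embryos was made into libraries by SmartSeq2 with oligo-dT priming, per the labels' protocols. Per the submitters' processing notes, the tools were DESeq2 1.32.0, R 3.5.1, bcl2fastq, kallisto 0.46.1 and Trim Galore 0.6.2, with mm10 and hg19 as builds. The deposited table holds kallisto's expected counts (estimated counts) for 119358 transcript entries. The authors' deposited comparison lists, per the file headers, log2 fold changes with adjusted p-values for single transcripts. It paired 117523 entries with symbols; GENCODE M21 paired 51 more, and 1779 entries (0.656% of counts) were left out. Columns of the table carry prefixes other than the titles for both SR1848 groups, and were matched to them by replicate numbers that the other groups' titles lack.

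Counts were summed by symbol and rounded. Libraries were left out where totals were under 1 in 5 or detected genes under 1 in 2 of the median (7), or where they belonged to the 2 sets of 8 in experiment 2 whose GFP went against the label (16). Tests were edgeR 4.0.16 (quasi-likelihood, TMM, filterByExpr, group and experiment as terms; SE from the fold change and F) and diffSpliceDGE in R 4.3.3, with DESeq2 1.42.0 as an alternative, adjusted p under 0.05, and were tested on simulated data. CPM values are counts per TMM-scaled library size, except those of Nr5a2 and GFP, which use the library's sum over symbols without TMM. TPM uses GENCODE transcript lengths. The protocol keeps no strand and has no molecular identifiers, so reads of overlapping genes cannot be told apart and errors cover counting and embryo together. Parents are not named in the labels, so p-values measure only the spread between these embryos. Named genes were those with the smallest p in each role, the most abundant per length, those against the main direction and those not tested; the remaining members and the genes of the other lists are named after their values were seen. The values of 1 member, which is in the counts, are not reported here. The members, lists and rules were chosen with earlier results of these data known.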

Additional observations from a re-analysis of the deposited data

Results flagged for a closer look

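In experiment 2 the 8 libraries labelled DMSO and numbered 1 to 8, which entered no comparison, held GFP at a median of 2514 CPM, where the 18 DMSO libraries kept reached at most 0.771 CPM. Their summed share of the 59 genes had a median of 0.190%, and that of the 8 libraries labelled SR1848_NR5A2OE with the same numbers 0.644%, close to the medians of 0.200% in SR1848_NR5A2OE embryos with GFP and 0.644% in DMSO.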

How the results depend on the processing

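Members lower with SR1848, against DMSO, numbered 33 to 53 over all settings run, and members lower with NR5A2 mRNA against DMSO 31 to 48. Members higher with SR1848 numbered 7, but 3 in experiment 2 alone, 3 with relative log expression, 3 with DESeq2 and 0 when scaled to oocyte transcripts. Members higher with NR5A2 mRNA against DMSO numbered 7, but 1, 3, 4 and 0 under the same settings. For NR5A2 mRNA against SR1848, 10 fell, but 3 with all libraries as labelled, 6 with only the low libraries left out, 3 in experiment 1 alone, 1 scaled to oocyte transcripts and 18 without embryos under 100 CPM of GFP. In this comparison 19 rose, but 10 in experiment 2 alone, 37 scaled to oocyte transcripts and 10 without those embryos. Usage was called in 9, but 2 in experiment 1 alone and 16 by the gene-level F test. The cause of these differences was not tested, apart from smaller samples within 1 experiment. Relative log expression moved the median of all genes to -0.55 for SR1848 against DMSO. Shares of all genes called are given for the TMM fit of the 114 libraries. For NR5A2 mRNA against SR1848 they are also given without embryos under 100 CPM of GFP. Counts under other settings have no such share beside them.

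Replicate numbers are shared by the groups, and the labels do not say that they pair embryos. Deviations of same-numbered SR1848 and SR1848_NR5A2OE embryos had a mean correlation of 0.009 over 16 pairs in experiment 1, with 3 pairs over 0.1, and of 0.019 over 16 pairs in experiment 2, with 5 over 0.1 and a highest of 0.40, so not every pair passed 0.1. With the replicate number as a block, 42 members fell and 7 rose with SR1848. For NR5A2 mRNA against SR1848 8 rose and 11 fell, and against DMSO 4 rose and 41 fell.

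Scaled to oocyte transcripts, named genes turned sign: with SR1848 Lsm14a (-0.41), Sf3b3 (-0.83), Lsm1 (-0.69), Lsm10 (-0.19), Lsm6 (-0.62) and Srsf4 (-0.78), and with NR5A2 mRNA Lsm14a (0.24), Sf3b1 (0.22) and Lsm14b (0.0054). Lsm6 with NR5A2 mRNA was -0.0504 log2 in experiment 1 alone. Of the other values of named genes, 306 with SR1848 and 229 with NR5A2 mRNA kept direction and call, and 29 and 47 lost the call. The 3 settings without number 2, without number 21 and, for usage, without low GFP were chosen after seeing the data.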

Other observations

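The 59 genes covered a wide range per length. In DMSO the medians ran from 787 TPM for Snrpe to 0 for Prpf40b, Srsf12 and Snrpert, and the 6 most abundant after Snrpe and Snrpg (660 TPM) were Srsf5 (433), Snrpa1 (328), Lsm2 (311), Sf3b6 (295), Srsf10 (282) and Srsf7 (277 TPM). In SR1848 the order was different: after Snrpg (708) and Snrpe (307) came Lsm14a (225), Lsm10 (177), Lsm7 (144) and Lsm2 (135 TPM), while Snrpa1 stood at 9.51 and Sf3b6 at 6.96 TPM. Of these, Lsm14a and Lsm10 act outside the spliceosome.

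Srsf12 had at least 1 count in 4 of 18 DMSO embryos and in 22 of 56 SR1848_NR5A2OE embryos, and Sf3a2 in 18 of 18 and 30 of 56; neither passed the filter, and no test was made.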
